A study of Mus musculus with 6 samples.

Results

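The inflammasome genes of primary mouse microglia were followed in 10 genes: the sensors Nlrp3, Nlrp1b, Nlrc4 and Aim2, the NLRP3 partner Nek7, the adaptor Pycard, the caspases Casp1, Casp4 and Casp8, and the pore-forming effector Gsdmd. They were taken by symbol from a table of 24411 genes, and all 10 had a row. Microglia are the resident macrophages of the brain. Per the labels, they came from whole brains of ICR mice aged 3 days, pooled from 12 animals, were shaken off mixed glial cultures, and were over 92% positive for CD11b by flow cytometry. All 6 libraries had FTY720 (fingolimod, a sphingosine analogue) at 1 µM for 4 h: 3 had FTY720 alone, and 3 also had lipopolysaccharide (LPS, a component of the outer membrane of Gram-negative bacteria) at 10 ng/ml for 4 h. No library without FTY720 was analysed here, so every difference is that of LPS in cells that also had FTY720. The labels call the replicates biological triplicates on independent RNA samples and do not say whether these came from separate cultures or pools of brains, so the p-values measure the spread between these samples, which may be technical.

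An inflammasome is a cytosolic complex in which a sensor gathers the adaptor ASC, encoded by Pycard, and through it caspase-1. Active caspase-1 cuts the precursors of interleukin-1β and interleukin-18 and also gasdermin D, whose freed part makes pores in the plasma membrane, a lytic death called pyroptosis. Caspase-11, encoded in the mouse by Casp4, binds LPS in the cytosol and cuts gasdermin D without an adaptor. In macrophages the Nlrp3 and interleukin-1β transcripts are known to be raised by Toll-like receptor signals through NF-κB, a step called priming, before a further signal starts assembly. Transcript levels as measured here do not report that assembly.

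Promoter sequence is shown for the 2 members with the highest fold changes, Nlrp3 and Casp4, and for Casp1, which lies 1562 bp upstream of Casp4 on the same strand of chromosome 9. The sequences are from RefSeq on GRCm38.p6 and run 5′ to 3′ on the gene's plus strand, from base 250 to base 26 before the start. Capitals mark matches to the NF-κB consensus (the κB consensus by its degenerate letters, both strands, overlapping matches merged).
Nlrp3, chr11:59541319-59541543: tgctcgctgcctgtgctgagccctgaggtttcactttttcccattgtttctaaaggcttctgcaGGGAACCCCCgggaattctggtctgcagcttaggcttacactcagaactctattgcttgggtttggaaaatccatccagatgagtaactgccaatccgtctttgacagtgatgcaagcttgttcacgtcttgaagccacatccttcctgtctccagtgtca
Casp4, chr9:5308599-5308823: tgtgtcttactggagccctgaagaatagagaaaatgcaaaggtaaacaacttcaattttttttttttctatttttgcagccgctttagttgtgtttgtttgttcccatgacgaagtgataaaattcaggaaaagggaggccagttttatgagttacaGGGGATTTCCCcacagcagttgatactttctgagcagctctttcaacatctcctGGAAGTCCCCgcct
Casp1, chr9:5298267-5298491: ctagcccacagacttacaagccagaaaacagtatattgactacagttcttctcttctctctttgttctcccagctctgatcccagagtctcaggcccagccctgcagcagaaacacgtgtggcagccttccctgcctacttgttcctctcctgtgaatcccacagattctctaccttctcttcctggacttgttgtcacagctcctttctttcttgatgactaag
The Casp4 window held 2 separate runs in capitals, the first made of 2 overlapping matches, from 93 to 83 and from 39 to 30 bases before the start. The Nlrp3 window held 1, from 186 to 177 bases before the start, and the window of the other listed Nlrp3 start held none (0). The Casp1 window held none (0). Among the 9 members with a promoter entry, Nlrp3 and Casp4 were the only ones with a match to this consensus, and 6.48% of all 32851 promoter windows of that length had one. A looser κB search, for the end letters of the site alone (GGG, any 5 bases, CC), matched Nlrp3, Casp4, Casp1 and Nek7, and 42% of all windows. The interferon-stimulated response element (ISRE; 2.68% of all windows), the STAT element TTCNNNGAA (6.38%), the AP-1 element TGANTCA (6.24%) and the TATA box TATAAA (10.6%) were searched on both strands and matched in no member's window. Bases nearer to the start than base 26 were not searched, so a TATA box there or across that edge would be missed. These are matches of letters in a short window and say nothing of binding.

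Gene reads numbered 2431775 to 3454647 per library, of which Rn45s, Lars2 and Mir6236, rows that collect ribosomal RNA-like reads, took 28.8% to 59.0%. A count of 0 allows 3 reads, or 0.706 to 1.502 CPM (counts scaled by library total and by the trimmed mean of M-values, TMM). In a principal component analysis FTY720 replicate 3 stood apart from the other FTY720 libraries, at -22.4 on the second component against 6.49 and 15.2. Without it 4 members were still higher and 2 lower, beside 2722 and 2495 of the 10249 genes then tested. Such floors and the intervals on summed reads cover counting error only. Of the members, 9 passed the low-count filter and Nlrp1b did not. The labelled cell type was checked against markers: the summed level of 10 microglia markers was 1961 to 2122 CPM with FTY720 and 3067 to 3530 CPM with LPS, and 8 of the 9 tested were higher. Csf1r was not called and Tmem119 was not tested. Summed oligodendrocyte-lineage markers stood at 225.6 to 248.8 and 119.4 to 135.7 CPM, with 4 of 4 tested lower, and neuron markers at 176.5 to 239.9 and 97.6 to 109.3 CPM, with 3 of 3 lower. Astrocyte markers were at 59.4 to 75.8 and 87.6 to 124.6 CPM (2 of 4 tested higher), fibroblast or mural markers at 45.4 to 77.1 and 54.2 to 85.8 CPM (0 of 4 called), and endothelial markers at 2.67 to 5.34 and 8.88 to 13.1 CPM (1 of 1 tested, Cdh5, higher). Monocyte or neutrophil markers were at 0.668 to 3.77 and 4.65 to 5.51 CPM (1 of 1 tested, S100a8, higher), with Ly6c2 and S100a9 at 0 reads, and lymphocyte markers at no more than 1.69 CPM, with Cd3g and Nkg7 among those at 0 reads. In bulk RNA, a change in the number of cells of a type and a change in RNA per cell cannot be told apart, and the part of these marker shifts in the results that follow was not tested.

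LPS raised Nlrp3 and Casp4 strongly and Casp1 and Nek7 slightly, lowered Pycard and Gsdmd, and left Aim2, Nlrc4 and Casp8 without a call. Of these calls only those of Nlrp3 and Casp4 held in all 16 alternative analyses, and that of Nek7 was lost in 11. With edgeR's quasi-likelihood test at a Benjamini-Hochberg adjusted p under 0.05 over 10124 genes, 4 of the 9 tested members were higher, where 23.3% of all tested genes were, and 2 were lower, where 22.7% were. Together that is 6 of 9 against 46% of all genes. At least 2-fold changes came to 2 members higher, against 8.49% of all genes, and 1 lower, against 9.59%. The CPM values of the 2 groups did not overlap for 6 of the 9 tested members, against 54% of all tested genes. With so few members these shares are a description. The median log2 fold change of the members tested was 0.31, and that of all tested genes was -0.04.

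**Figure D1:**
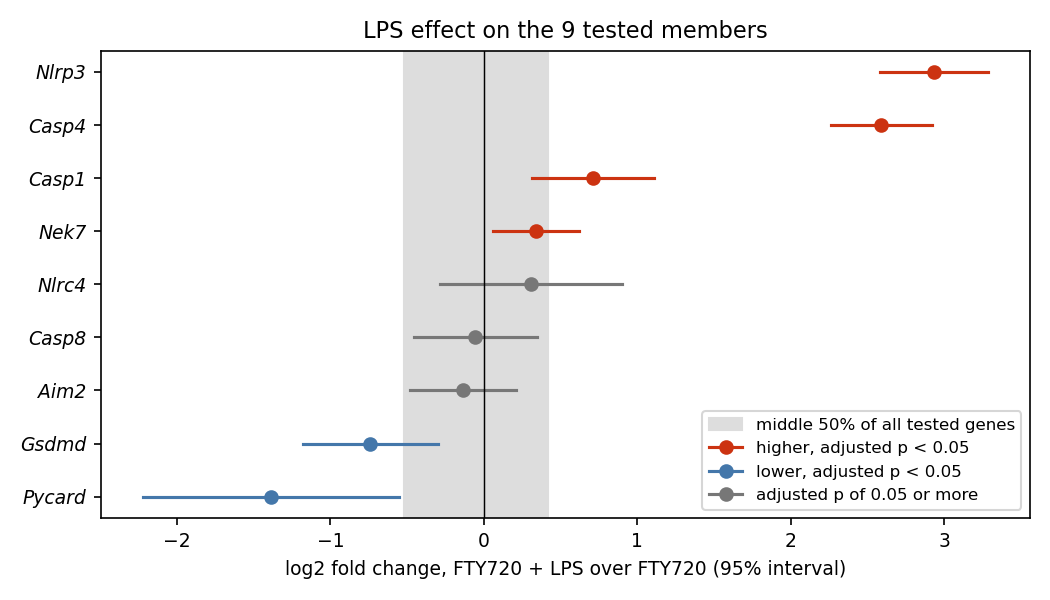
Log2 fold change of FTY720 with LPS over FTY720 alone for the 9 tested members (points, with 95% intervals from the edgeR fit; the grey band is the middle 50% of all tested genes). Nlrp3 and Casp4 lie at 2.93 and 2.59, far outside the band, whereas the other 7 members lie between -1.39 and 0.71.

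Among the sensors, Nlrp3 (chromosome 11, 59541568 to 59566956, plus strand, GRCm38) responded most. NLRP3 senses potassium loss and other signs of cell damage. Its level was 8.34, 9.01 and 10.1 CPM in the 3 FTY720 libraries and 67.1, 74.9 and 70.6 CPM in the 3 LPS libraries. Every LPS library was thus well above every FTY720 library, and the libraries within a group lay close together. The difference was 7.63-fold (log2 fold change 2.93 with an SE of 0.17 over 3 libraries a group, edgeR adjusted p = 1.25e-12), and Nlrp3 ranked 136th from the top of the 10124 genes. Clic4 and Ddx60 had the most similar pattern, at Euclidean distances of 0.17 and 0.19 in gene-centred log2 CPM over the 6 libraries, and log2 fold changes of 2.84 and 2.83. The third nearest, Clec12b, lay at a distance of 0.27, but with few reads its centred values depend on the prior count and its fitted log2 fold change was 6.81.

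Aim2, a sensor of cytosolic double-stranded DNA (chromosome 1, 173350879 to 173466040, plus strand), had 30.0, 26.0 and 29.4 CPM with FTY720 and 25.7, 26.2 and 26.0 CPM with LPS. These ranges overlapped, and the log2 fold change was -0.14 ± 0.17 (95% interval -0.48 to 0.21, adjusted p = 0.529). Nlrc4, which joins NAIP proteins that recognise bacterial flagellin and secretion system parts (chromosome 17, 74425438 to 74459142, minus strand), had 5.67, 6.34 and 7.06 CPM with FTY720 and 7.46, 9.31 and 7.01 CPM with LPS. One LPS library lay just under the highest FTY720 library, and the log2 fold change was 0.31 ± 0.29 (95% interval -0.28 to 0.90, adjusted p = 0.394). The interval of Nlrc4 was the wider, on 66 and 56 reads per group against 293 and 183 for Aim2.

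Within each library the ratio of 2 genes is free of the scaling between libraries. The ratio of Nlrp3 to Aim2, both per transcript length, was 0.196, 0.244 and 0.243 with FTY720 and 1.84, 2.02 and 1.91 with LPS. That of Nlrp3 to Nlrc4 was 1.154, 1.115 and 1.124 against 7.06, 6.31 and 7.90. Neither ratio overlapped between the groups (exact two-sided permutation p = 0.1 for each, the smallest that 3 against 3 libraries allow). Nlrp3 therefore changed unequally with these other sensors, whatever the scaling.

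Nlrp1b, a sensor cut open by anthrax lethal factor (chromosome 11, 71153102 to 71230733, minus strand), was scarce. It had 9, 8 and 8 reads with FTY720 and 2, 3 and 0 reads with LPS. The groups did not overlap, and the summed reads, 25 and 5, were 3.44-fold lower with LPS once scaled by effective library size (95% counting interval 1.29 to 11.5, exact permutation p = 0.1). Without the low-count filter edgeR gave a log2 fold change of -1.75 ± 0.68 (adjusted p = 0.0430), while DESeq2 gave -1.81 (adjusted p = 0.187). Reads that fit equally well to Nlrp1a, a paralog 8397 bp away on the same strand, would be listed as multimapping and counted for neither gene. The counts of both genes may therefore be too low. Nlrp1a had 8.86 ± 1.89 CPM with FTY720 and 2.74 ± 1.18 CPM with LPS (SD, n = 3) and fell by 1.64 ± 0.36 on the log2 scale (edgeR adjusted p = 0.000695).

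Nek7 encodes a kinase that binds NLRP3 and is needed for its assembly (chromosome 1, 138482875 to 138620141, minus strand). Its CPM was 45.1, 44.1 and 46.6 with FTY720 and 57.1, 58.8 and 56.1 with LPS. The groups were narrow and did not overlap, with a 1.27-fold rise (log2 fold change 0.34 ± 0.13, adjusted p = 0.0423). That call was lost in 11 of 16 alternatives, among them DESeq2 (0.37, adjusted p = 0.104) and total library size as the only scaling (0.01, adjusted p = 0.976), and in the fits without FTY720 replicate 1 (0.34, adjusted p = 0.108), FTY720 replicate 2 (0.35, adjusted p = 0.0761), LPS replicate 1 (0.37, adjusted p = 0.0737) or LPS replicate 2 (0.34, adjusted p = 0.113).

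**Figure D2:**
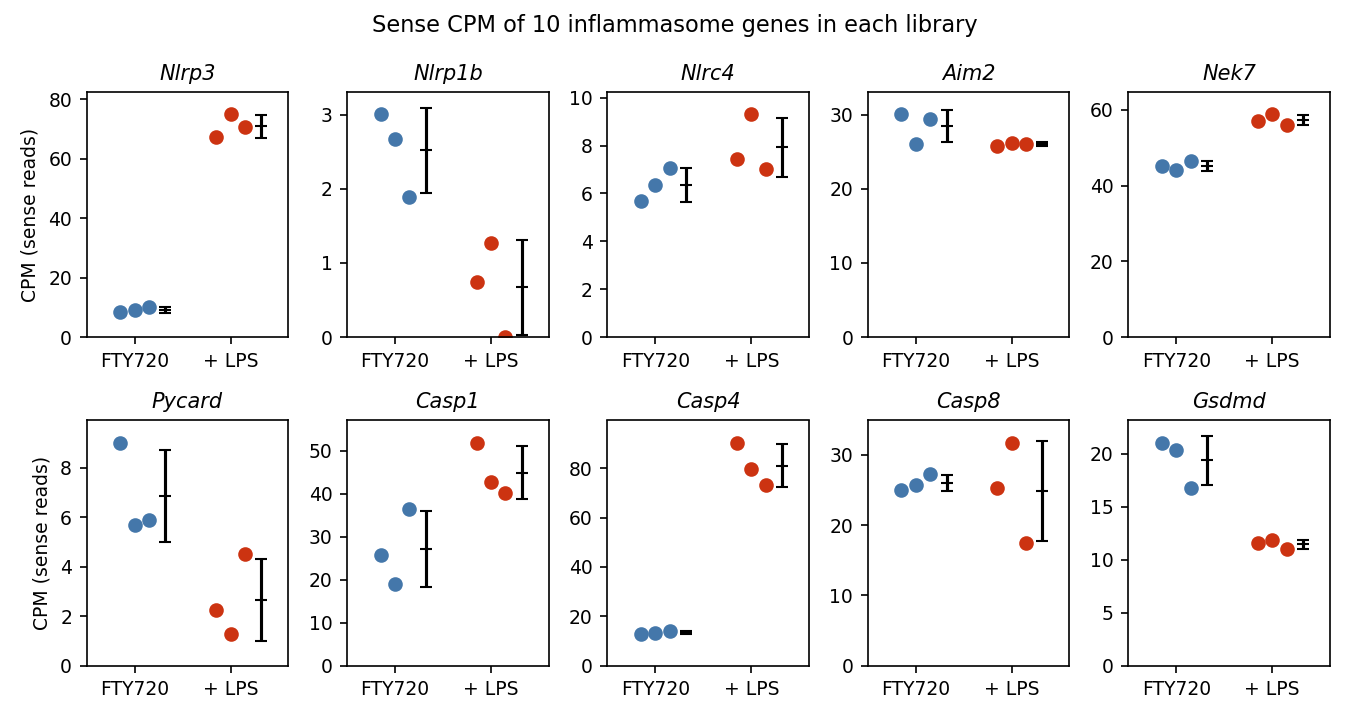
Sense CPM (y axis, linear, from 0, a separate scale for each gene) of the 10 members in the 3 FTY720 and 3 FTY720 with LPS libraries (points), with mean and SD in black. The groups are apart for Nlrp3, Nlrp1b, Nek7, Pycard, Casp1, Casp4 and Gsdmd, and overlap for Nlrc4, Aim2 and Casp8.

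Pycard, the adaptor gene (chromosome 7, 127989708 to 127993867, minus strand), fell on its own strand. It had 27, 17 and 25 sense reads with FTY720 (9.01, 5.68 and 5.89 CPM) and 6, 3 and 9 with LPS (2.24, 1.27 and 4.51 CPM). All LPS libraries were below all FTY720 libraries, and the LPS libraries also varied among themselves. The change was 2.61-fold (log2 fold change -1.39 ± 0.40, edgeR adjusted p = 0.00754). The call ended with DESeq2 (-1.36, adjusted p = 0.0708), after removal of the trend with expression (-0.99, adjusted p = 0.0621), without LPS replicate 1 (-1.25, adjusted p = 0.0507) and without LPS replicate 2 (-1.04, adjusted p = 0.0687).

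Reads on the strand opposite to Pycard went the other way. There were 5, 9 and 4 of them with FTY720 and 34, 24 and 30 with LPS. The share of the locus's reads on the opposite strand was 20.7% (18 of 87, exact 95% binomial interval 12.7% to 30.7%) with FTY720 and 83.0% (88 of 106, 74.5% to 89.6%) with LPS. In edgeR on the opposite-strand counts, a test chosen after these counts were seen, the log2 fold change was 2.79 ± 0.36 (adjusted p = 7.45e-08); of the 614 genes with enough opposite-strand reads to test, 34.5% were higher. With the strands added together Pycard stood at 0.80 (adjusted p = 0.0157), the reverse of its sense direction. Of 9467 genes with at least 30 reads over both strands in each group, 23 went from under 50% opposite-strand reads in every FTY720 library to over 50% in every LPS library, and Pycard was the only member among them.

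On the plus strand, which is the strand of those reads, the annotation places the unclassified transcript Gm45205 over 599 bp of the gene's 5′ part. Trim72, a membrane repair gene, starts 10081 bp beyond Pycard and runs away from it, so as annotated it does not overlap Pycard. Trim72 rose from 2, 2 and 3 reads to 16, 14 and 30 reads (log2 fold change 3.58 ± 0.51, edgeR adjusted p = 4.56e-06). Both neighbours were named after the counts were seen, and their part in the reads opposite to Pycard was not tested. For the other 9 members the opposite strand held at most 12 reads in a group.

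**Figure D3:**
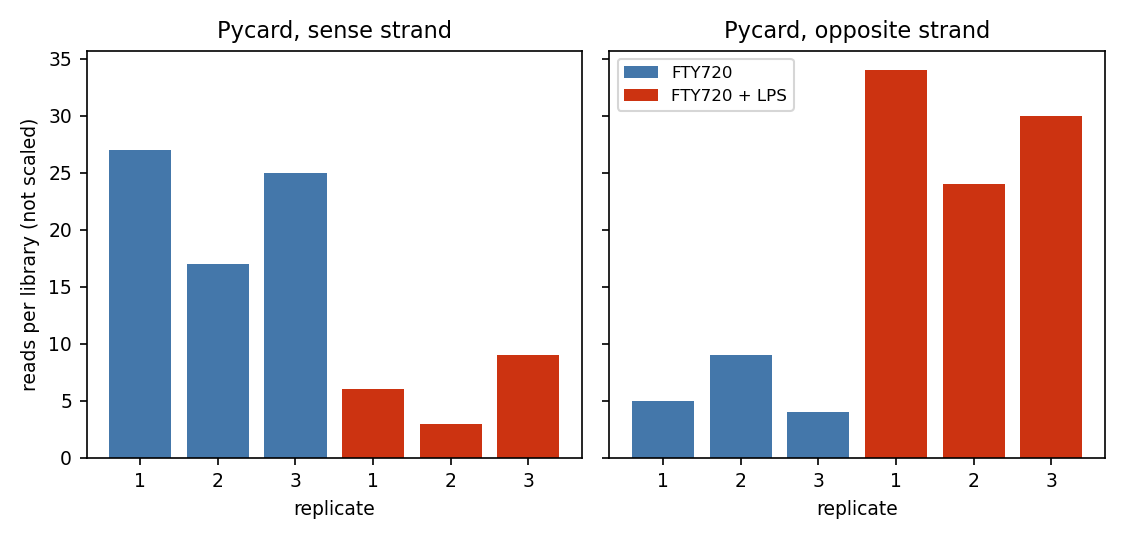
Reads per library (not scaled) at Pycard on its own strand (left) and on the opposite strand (right), one bar per library. Sense reads run from 17 to 27 with FTY720 and from 3 to 9 with LPS; opposite-strand reads run from 4 to 9 and from 24 to 34.

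The inflammatory caspases Casp1 and Casp4 lie side by side on the plus strand of chromosome 9 (Casp1 5298517 to 5307265, Casp4 5308828 to 5336783). Casp4, the gene of the LPS-binding caspase-11, had 12.7, 13.4 and 14.1 CPM with FTY720 and 90.3, 79.5 and 73.1 CPM with LPS. The groups were far apart, with a 6.03-fold rise (log2 fold change 2.59 ± 0.16, edgeR adjusted p = 3.77e-12, rank 182 from the top). Its nearest patterns were those of Ifi35 (distance 0.25, log2 fold change 2.67), Peli1 (0.29, log2 fold change 2.46) and Icosl (0.33, log2 fold change 2.72).

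Casp1 had 25.7, 19.0 and 36.5 CPM with FTY720 and 51.8, 42.7 and 40.0 CPM with LPS. The groups did not overlap, but FTY720 replicate 3 came close to the lowest LPS library. It rose 1.64-fold (log2 fold change 0.71 ± 0.19, adjusted p = 0.00447). Without FTY720 replicate 3 the value was 1.02, and with total library size as the only scaling the call ended (0.34, adjusted p = 0.371). The ratio of Casp4 to Casp1 per transcript length was 0.515, 0.732 and 0.404 with FTY720 and 1.82, 1.94 and 1.90 with LPS, a 3.43-fold difference of the means (exact permutation p = 0.1). The rise of the neighbouring caspases was thus unequal within the same libraries.

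Casp8 encodes the initiator caspase of death receptor signalling, which can also cut gasdermin D and act beside caspase-1 (chromosome 1, 58795374 to 58847503, plus strand). It had 25.03, 25.7 and 27.3 CPM with FTY720 and 25.4, 31.7 and 17.5 CPM with LPS. LPS replicate 1 lay within the FTY720 range, replicate 2 above it and replicate 3 below it, and the log2 fold change was -0.05 ± 0.19 (95% interval -0.45 to 0.34, adjusted p = 0.838). Without LPS replicate 3, the lowest library, it was 0.15 (adjusted p = 0.542).

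Gsdmd, the gene of the pore-forming substrate of caspase-1 and caspase-11 (chromosome 15, 75862327 to 75867408, plus strand), fell. Its CPM was 21.02, 20.4 and 16.7 with FTY720 and 11.6, 11.8 and 11.01 with LPS. The groups did not overlap, and the change was 1.67-fold (log2 fold change -0.74 ± 0.21, edgeR adjusted p = 0.00710). DESeq2 gave -0.72 with an adjusted p of 0.0681, and in the other 15 alternatives the call held. The ratio of Casp1 to Gsdmd per transcript length was 1.46, 1.12 and 2.61 with FTY720 and 5.37, 4.32 and 4.35 with LPS, again without overlap. The Casp1 and Casp4 transcripts and the transcript of their substrate thus moved in opposite directions in the main fit, while Casp8 was not called.

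By the same distance, Pycard lay nearest to Igsf11 (0.34), Palm (0.44) and Ccp110 (0.48), and Gsdmd to Gmip, Cyld and Ehmt2 (0.10 to 0.12). Casp1 lay nearest to Fastkd5, Mrpl32 and Crls1 (0.17 to 0.22) and Nek7 to Taok1, Rsrp1 and Zfp451 (0.05 to 0.09). The uncalled Aim2 lay nearest to Ivns1abp, Scfd2 and Ccpg1, Casp8 to Ckap2, Brcc3 and Mtif3, and Nlrc4 to Chtop, Usp14 and Mob4.

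Levels were set side by side as CPM per kb of the protein-coding transcript with the longest coding part. With FTY720 the order began with Casp1 (18.1 ± 5.89 CPM per kb, SD, n = 3) and Casp8 (14.1 ± 0.63), whose ranges overlapped. Gsdmd (10.8 ± 1.30), Aim2 (10.0 ± 0.76), Casp4 (9.33 ± 0.50) and Nek7 (8.60 ± 0.24) followed, each overlapping the next. Nlrp3 (2.28 ± 0.22), Nlrc4 (2.02 ± 0.22) and Pycard (1.805 ± 0.49) formed a lower group of overlapping ranges, and Nlrp1b (0.61 ± 0.14) was lowest.

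With LPS, Casp4 (56.4 ± 6.05 CPM per kb) stood above Casp1 (30.0 ± 4.13), followed by Nlrp3 (17.6 ± 0.97), with no overlap between these neighbours. Casp8 (13.5 ± 3.85) overlapped both Nlrp3 and Nek7 (10.9 ± 0.26), and below them Aim2 (9.16 ± 0.09), Gsdmd (6.40 ± 0.24), Nlrc4 (2.51 ± 0.39), Pycard (0.70 ± 0.44) and Nlrp1b (0.16 ± 0.15) did not overlap. The place of Casp4 rests on its transcript length of 1435 bases: over the union of its annotated exons, 3710 bases, it stood at 3.61 ± 0.19 with FTY720 and at 21.8 ± 2.34 with LPS, below Casp1. On that length Casp8 (8.99 ± 0.40 with FTY720, 8.60 ± 2.46 with LPS) no longer overlapped Casp1 with FTY720 or Nlrp3 with LPS, and with FTY720 Nek7 (6.13 ± 0.17) stood above Casp4 and Pycard above Nlrc4 (1.32 ± 0.14). The level of Pycard is uncertain too, since its spliced GENCODE model has 3800 bases while the whole RefSeq gene, introns included, spans 2495 bp.

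**Figure D4:**
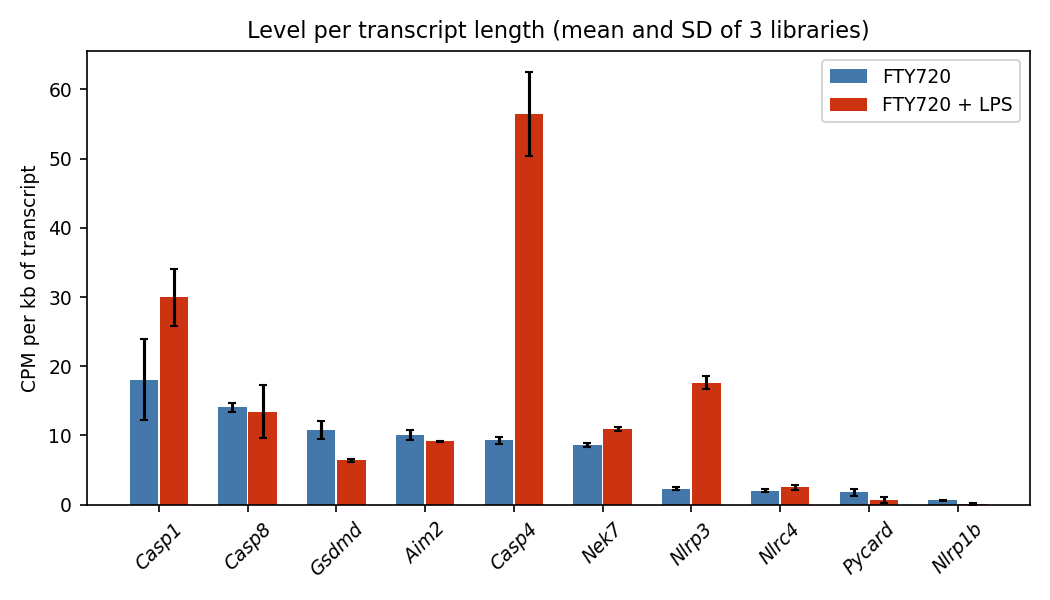
CPM per kb of transcript (y axis, linear, from 0) for the 10 members, in the order of their FTY720 level; bars are means and error bars SD of 3 libraries. With LPS, Casp4 reaches 56.4 and Nlrp3 17.6, from 9.33 and 2.28 with FTY720 alone.

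Other genes of the pathway were counted in 7 lists. Over all tested genes 23.3% were higher and 22.7% lower. The lists were chosen with earlier results known and were not tested as sets, so their counts are a description. Of 19 other sensors and sensor partners, 9 were tested, with 2 higher and 3 lower (median log2 fold change -0.11). Nod2, a receptor for bacterial muramyl dipeptide, rose by 2.77 ± 0.41, and Nlrc5, a transactivator of class I antigen presentation genes, by 1.59 ± 0.16. Naip2, which recognises a rod protein of bacterial secretion systems and hands it to NLRC4, fell by 0.64 ± 0.14; the Naip genes are near-identical copies, so their counts are uncertain. The proteases Dpp8 and Dpp9, which hold NLRP1 in check, stood at -0.11 ± 0.13 and -0.55 ± 0.25 without a call. Dpp9 was called lower with upper-quartile factors (-0.69, adjusted p = 0.0269), total library size (-0.82, adjusted p = 0.0310) and no low-count filter (-0.56, adjusted p = 0.0493), and without FTY720 replicate 3 (-0.80, adjusted p = 0.00164). Without FTY720 replicate 2 it stood at -0.30.

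Of 7 other caspases 5 were tested, and 2 were higher and 3 lower (median -0.77); scaling by total library size left 1 higher. Casp9, the initiator activated by the apoptosome, fell by 1.93 ± 0.19, from 40.6 ± 2.14 to 10.6 ± 2.34 CPM (SD, n = 3), and Casp2 fell by 0.94 ± 0.24. Casp12, the next gene after Casp4 in the cluster, had 2 reads in each group. Of 12 other pore and membrane rupture genes 2 were tested: Ninj1, which ruptures the membrane after pores form, rose by 0.62 ± 0.12, a call lost with scaling by total library size (0.30, adjusted p = 0.438) and after removal of the trend with expression (0.27, adjusted p = 0.0577), and the channel gene Panx1 stood at -0.26 ± 0.25. The 8 other gasdermin genes listed had at most 5 reads in a group.

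The list of caspase-1 substrates, related interleukin-1 family cytokines and antagonists had 6 tested genes, with 3 higher and 0 lower (median 1.90). Of these 3, only Il1b encodes a cytokine named above as cut by caspase-1. Il1b rose by 6.95 ± 0.15, from 18.8 ± 4.25 to 2289 ± 82.7 CPM, and Il1a, whose product is active without caspase-1, by 5.83 ± 0.15. Il18, the other main caspase-1 substrate, stood at 0.77 ± 0.33 (adjusted p = 0.0620), with 46 reads against 54, and was called without FTY720 replicate 3 (0.99, adjusted p = 0.0285), without LPS replicate 3 (1.02, adjusted p = 0.0216) and after removal of the trend with expression (1.08, adjusted p = 0.0152). Without FTY720 replicate 3, 5 genes of this list were higher. With the strict low-count filter 2 were, and without Rn45s, Lars2 and Mir6236 also 2. Il33 rose by 3.04 ± 0.50 from 6 reads to 36 (1, 1 and 4 with FTY720, 14, 13 and 9 with LPS). Il1rn, the receptor antagonist, stood at 0.19 ± 0.20.

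Of 16 tested genes that activate or restrain NLRP3, 6 were higher and 5 lower (median -0.02). Scaling by total library size gave 2 higher and 5 lower, and removal of the trend with expression gave 3 higher and 7 lower. P2rx7, the ATP-gated channel through which ATP starts NLRP3 assembly, fell by 2.03 ± 0.17, from 62.9 ± 5.93 to 15.5 ± 2.20 CPM, and the potassium channel gene Kcnk6 by 1.39 ± 0.44, from 46 reads to 12. The call for Kcnk6 ended with DESeq2 (adjusted p = 0.124), after removal of the trend with expression (adjusted p = 0.137), and without FTY720 replicate 1 (adjusted p = 0.0551), LPS replicate 2 (adjusted p = 0.0735) or LPS replicate 3 (adjusted p = 0.0696). Tnfaip3, which encodes the ubiquitin-editing inhibitor A20, rose by 2.77 ± 0.13, and Pml by 1.37 ± 0.28. Txnip (-0.01 ± 0.13) and P2rx4 (-0.18 ± 0.11) were not called. After removal of the trend with expression both were called lower, Txnip at -0.35 (adjusted p = 0.0193) and P2rx4 at -0.62 (adjusted p = 5.45e-05), and P2rx4 was also called lower with upper-quartile factors (-0.31, adjusted p = 0.0241).

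Of 15 tested genes on the list of caspase-11 licensing and interferon-linked genes, 11 were higher and 0 lower (median 2.57). The list does not sort genes that license caspase-11 from interferon-linked genes that may act otherwise on it. In 4 alternatives 1 gene was lower: upper-quartile factors, total library size, unstranded counts and without LPS replicate 2. The guanylate-binding proteins Gbp5 (6.78 ± 0.21), Gbp2 (5.03 ± 0.23) and Gbp7 (3.14 ± 0.24), which coat bacteria and expose LPS, and the GTPase Irgm2 (3.76 ± 0.26) rose most. The transcription factor gene Irf8 (0.29 ± 0.14) and the receptor gene Ifnar1 (0.27 ± 0.11, adjusted p = 0.0504) were not called; Ifnar1 passed in 4 of the alternatives, with an adjusted p of 0.0101 without FTY720 replicate 3 and 0.0244 without LPS replicate 3.

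Of 12 tested genes of death signalling around caspase-8, 3 were higher, 1 lower and 8 not called (median 0.02). Cflar, whose product cFLIP pairs with caspase-8 and restrains cell death, rose by 2.505 ± 0.13, from 54.2 ± 7.98 to 305.7 ± 26.7 CPM. Ripk3, the kinase of necroptosis, rose by 1.52 ± 0.40 and Birc3, a ubiquitin ligase of the inhibitor of apoptosis family, by 0.79 ± 0.17, the latter without a call when total library size alone was used (0.48, adjusted p = 0.198). Tnfrsf1a, the main TNF receptor, fell by 0.95 ± 0.15. Ripk1 (-0.07 ± 0.13) and Map3k7 (0.26 ± 0.15) were not called.

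**Figure D5:**
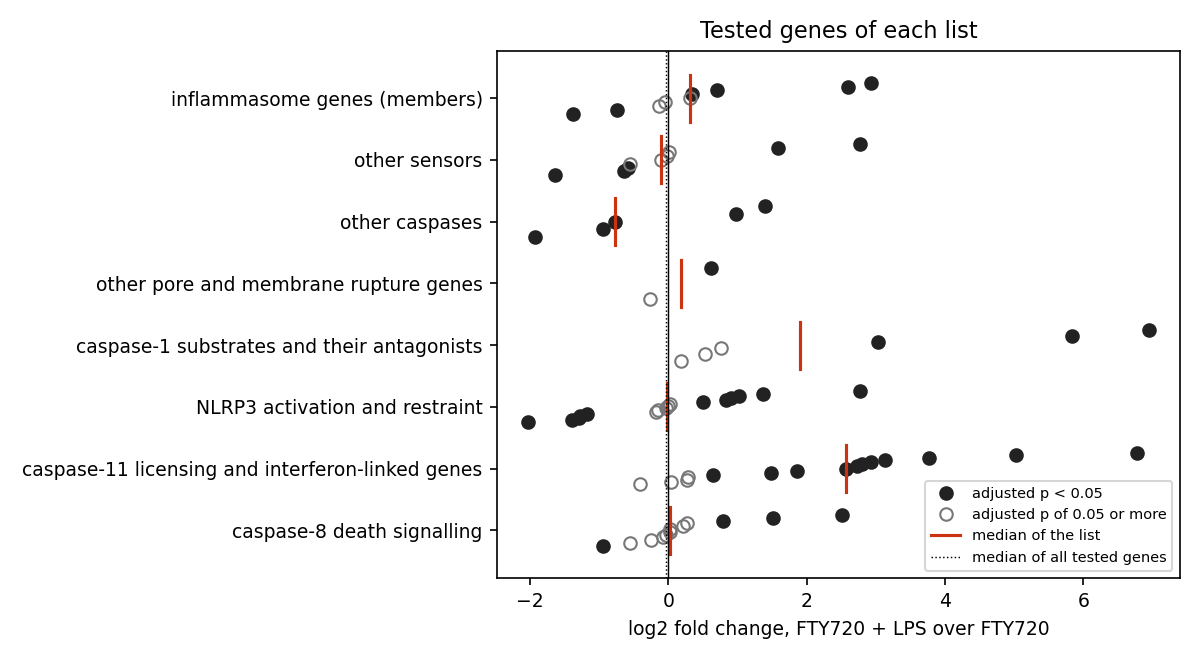
Log2 fold change of every tested gene in the 10 members and the 7 other lists (filled points pass the edgeR test, open points do not; red lines are list medians, the dotted line the median of all tested genes). The list of caspase-11 licensing and interferon-linked genes reaches 6.78 (Gbp5), and that of caspase-1 substrates and their antagonists 6.95 (Il1b), the highest values. The other caspases split to both sides of 0.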

How the data were processed

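RNA was measured in 6 libraries of primary mouse microglia, 3 a group. Directional, randomly primed libraries of rRNA-depleted RNA were sequenced on a HiSeq2000, per the labels' protocols. The authors deposited raw read counts per gene and library, in 3 columns (both strands, and each strand), with multimapping reads listed apart from the genes. The submitters' processing notes list STAR 2.5.1 and Trimmomatic 0.33, beside CASAVA 1.8.2, DESeq2 and the build mm10. For the annotation and settings, nothing is given in the sources used here.

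Deposited counts of the strand with 98.4% to 98.9% of gene reads were taken as sense counts. As shares of all reads listed, unmapped (24.4% to 27.0%), multimapping (7.69% to 8.15%), featureless (42.2% to 44.5%) and ambiguous (0.0748% to 0.114%) rows entered neither library sizes nor tests. Counts were fitted by group in edgeR 4.0.16 (R 4.3.3; TMM, filterByExpr with minimum count 10, quasi-likelihood test), which kept 10124 of 24411 genes. P-values were adjusted by Benjamini and Hochberg over all of these, with a threshold of 0.05. Each SE was taken as |log2 fold change| over the root of F. Log2 CPM used a prior count of 2. The script was tested on simulated data.

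The members, the 7 other gene lists, the markers and the tests were chosen with earlier results of these data known. Beside the members, the rule named up to 4 called genes per list, by size of change, whose mean log2 CPM reached 1, up to 2 uncalled genes with the highest mean, Il1b and Il18, and the 3 genes nearest each tested member in pattern. Trim72, Gm45205 and Casp12 lie outside the rule and were named after their values were seen. The listed Card8 and Irgb10 and the marker Ly6g matched no row, and some genes that the rule names are not reported here. GENCODE M21 (GRCm38, that is mm10) gave positions and lengths. No 2 replicates were alike within counting noise (chi-square per degree of freedom 1.30 to 4.73). Alternatives were DESeq2 1.42.0, other scalings, filters, unstranded counts, a replicate block and leaving out each library.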

Additional observations from a re-analysis of the deposited data

Results flagged for a closer look

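Reads opposite to Pycard were outside the main measurement of sense counts and stood above the level in the FTY720 libraries: 88 reads over the 3 LPS libraries against 18 over the 3 FTY720 libraries. The edgeR adjusted p on the opposite strand stayed between 5.09e-09 and 4.02e-05 when each library was left out, with log2 fold changes of 2.40 to 3.28.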

How the results depend on the processing

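Nlrp3 (log2 fold change 2.61 to 3.02) and Casp4 (2.27 to 2.68) kept their calls in all 16 alternatives. With total library size alone the median of all genes moved from -0.04 to -0.35 and with upper-quartile factors to -0.17; relative to these medians Nlrp3 and Casp4 stayed higher and Gsdmd lower. Members called higher numbered 2 with total library size alone, where 766 of all genes were higher. Members called lower numbered 0 with DESeq2 (1274 of all genes lower), 1 with the expression trend removed and 1 with unstranded counts. Leaving out each library gave 3 to 4 members higher and 1 to 2 lower, and 2043 to 2722 genes higher and 1700 to 2495 lower over all genes. Pycard turned to 0.80 with unstranded counts, Nlrc4 to -0.0082 with total library size alone, and Casp8 ranged from -0.24 to 0.15 as each library was left out, the latter without LPS replicate 3. The cause was not tested, except that the unstranded count adds the opposite strand. With total library size alone Il1rn stood at -0.14, Ifnar1 at -0.054, Irf8 at -0.046 and Map3k7 at -0.0555, and Ifnar1 at -0.18 with the expression trend removed. Il1rn ranged from -0.044, without LPS replicate 3, to 0.35. Txnip, near 0, turned to 0.025 with DESeq2, 0.0090 with RLE factors, 0.0078 with the strict filter and 0.0038 with the replicate block, stood at -0.35 (called lower, adjusted p = 0.0193) with the expression trend removed, and ranged from -0.0771 to 0.13 as each library was left out. Over the 35 other named genes, 522 of 558 values kept direction and call. Deviations of same-numbered libraries correlated at -0.07 to -0.02, so the numbers were not taken to pair them; with the replicate number as a block 2292 genes were higher and 2171 lower, 3 members higher and 2 lower, and Nek7 lost its call (0.34, adjusted p = 0.0640). Reads per member, 5 to 576 in a group, limit the precision for Pycard, Nlrp1b and Nlrc4.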
